A study of Mus musculus with 9 samples.

Results

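Ribosome biogenesis and nucleolar genes were followed across normal and leukemic mouse progenitors. They are 53 genes listed by name, and their members in the data are all probe sets of the deposited value table annotated to 1 of them. Of the 53 genes, 48 had a named probe set, with 82 probe sets in all, among 12393 named genes and 22690 probe sets. Dkc1, Npm3, Nob1, Nat10 and Mrto4 had none that was named for them alone and were not analysed here. The filter on dim signals left 47 genes and 74 of the 82 probe sets to be tested. Dimt1, a methyltransferase of the small subunit rRNA, was the exception, with signals between 35.4 and 104 on the 9 arrays for 1 probe set and between 49.2 and 94.8 for the other. No gene passed the filter only through 1 group, and 44 of the 47 genes were above it on every array.

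Ribosomes are assembled in the nucleolus. RNA polymerase I transcribes a long precursor RNA there, small nucleolar ribonucleoproteins guide its chemical modification, and a succession of assembly factors cuts and folds it into the small and large subunits. Ribosome output sets how much protein a cell can make, and the genes for its assembly are known as targets of Myc in growing cells, including blood progenitors.

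RNA was measured on 9 Affymetrix arrays, 3 for each of 3 kinds of sorted mouse cell. Normal granulocyte-macrophage progenitors (GMP) are marrow cells committed to granulocytes and macrophages. L-GMP resemble GMP but were sorted from the marrow of leukemic mice, in a study of the leukemia gene MLL-AF9, which joins Kmt2a to Mllt3. The third kind, called L-GMP-derived, was read by elimination as cells obtained by in vitro growth of L-GMP, since its arrays have only a coded title and the source L-GMP. This reading limits what is said of them. About 50000 sorted cells were lysed for each sample and about 50 ng of total RNA was labelled. The labels give no strain, age, number of animals, route of the fusion gene or culture conditions, and do not say whether arrays of a group are separate animals or cultures. The p-values thus cover only the spread among these arrays, which may be technical, and precision is limited by having 3 arrays a group.

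The label of GMP was checked against 11 measured genes of the GMP gate and identity: 10 were above the filter on every GMP and L-GMP array, and 8 on every L-GMP-derived array. In L-GMP-derived cells Cd34 and Kit, which define the gate, were not above the filter on any array. A signal above the filter does not show an unchanged level. Of the 10 tested, Cd34, Cebpa and Ctsg fell in L-GMP against GMP, and Fcgr2b and Fcgr3 rose. In L-GMP-derived cells against GMP, Cd34, Kit, Csf1r and Mpo fell and none rose. Mpo averaged 9366 ± 129 in GMP and 1442 ± 1853 in L-GMP-derived cells (SD, n = 3). Csf1r averaged 5767 ± 507 and 535 ± 247 in the same order. A dimmer probe set of Csf1r also fell, and another was not called (log2 difference -0.16, adjusted p = 0.341). Markers of some other cells differed between the groups. The summed signal of 9 monocyte and macrophage markers lay between 8825 and 10489 in L-GMP, between 5858 and 6205 in GMP and between 4334 and 4534 in L-GMP-derived cells. Of the 7 tested, Adgre1, Cd68 and Vcam1 rose in L-GMP against GMP, and Ccr2 and Ms4a7 fell. In L-GMP-derived cells against GMP, Adgre1 and Cd68 rose, and Ccr2 and Vcam1 fell, so the lower sum does not hold for each marker. Dimmer probe sets of Vcam1 were not called in this comparison (log2 differences -0.16 and -0.09, adjusted p = 0.544 and 0.746). The sum of 7 mast cell, eosinophil and basophil markers lay between 4213 and 6433 in L-GMP, between 3362 and 3614 in GMP and between 235 and 373 in L-GMP-derived cells, where none of the 7 was above the filter on all arrays. Of the 4 tested, Prg2 rose in L-GMP against GMP, and Hdc and Mcpt8 fell. A dimmer probe set of Hdc was not called there (log2 difference -0.17, adjusted p = 0.522). The 8 measured neutrophil markers summed to between 17929 and 36712 in L-GMP, between 8983 and 22602 in GMP and between 962 and 8499 in L-GMP-derived cells, with none of the 6 tested called in L-GMP against GMP. The sums of B cell markers overlapped in all groups. T and NK cell markers summed to 2604 to 3122 in L-GMP, 3457 to 3659 in GMP and 1306 to 1546 in L-GMP-derived cells. Erythroid and megakaryocyte markers summed to 1456 to 1679, 1678 to 1873 and 1319 to 1404 in the same order. The 3′ to 5′ signal ratio of the beta-actin control probe sets, a measure of RNA integrity and labelling, was 5.17 ± 0.355 (SD, n = 3) in L-GMP, 7.10 ± 0.140 in L-GMP-derived cells and 7.37 ± 0.648 in GMP. The exact two-sided permutation p was 0.1 for L-GMP against each other group, and groups of 3 cannot give a smaller one. That ratio of Gapdh was 8.09 ± 3.05, 7.21 ± 1.78 and 7.86 ± 0.855 in the same order, with overlapping arrays. L-GMP-derived replicate 1 stood somewhat apart: its correlation with the other arrays of its group was 0.958 and 0.964, against 0.989 between those. The part of these differences in the results was not tested. In such bulk samples fewer cells of a type and less RNA per cell cannot be told apart.

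Ribosome biogenesis genes were lowest in L-GMP and highest in L-GMP-derived cells. Each gene was represented by its brightest probe set on average, differences were tested with limma on log2 signals, and a call is an adjusted p under 0.05 over all tested probe sets. Against GMP, 24 of the 47 genes fell in L-GMP and 0 rose, where 12.8% of all 8965 tested genes fell and 13.1% rose. The median log2 difference of the 47 genes was -0.36, against -0.01 over all tested genes, and 40 of the 47 differences were negative. Against L-GMP, 33 of the 47 genes rose in L-GMP-derived cells and 0 fell, where 16.6% of all tested genes rose and 14.1% fell. Their median log2 difference was 0.63, against 0.00 over all genes, and 44 were positive. Against GMP, 13 genes rose in L-GMP-derived cells and 0 fell, where 13.4% of all tested genes rose and 10.7% fell. Here the median was 0.16, against 0.00, and 36 were positive. With weights for each array, 22 genes rose and 1 fell in this comparison, where 25.6% of all tested genes rose and 21.6% fell. The 3 comparisons share arrays and are not independent of each other.

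The group means of 39 of the 47 genes were lowest in L-GMP (83.0%, against 34.8% of all tested genes), and those of 36 were highest in L-GMP-derived cells (76.6%, against 34.0%). For 27 genes each L-GMP array was below all other 6 arrays, as for 11.7% of all tested genes. For 17 genes each L-GMP-derived array was above all other 6, as for 10.5%. Only Heatr1 and Polr1b had every GMP array above the rest, where 8.49% of all tested genes did. Within each array, the median deviation of the 47 genes from their own mean over the 9 arrays was -0.29, -0.34 and -0.28 (log2) in L-GMP. It was 0.07, 0.06 and 0.07 in GMP, and 0.18, 0.38 and 0.27 in L-GMP-derived cells. The 3 groups did not overlap in this measure, and L-GMP-derived replicate 1 lay nearest to GMP. The medians over all tested genes lay between -0.02 and 0.04 on the 9 arrays.

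**Figure D1:**
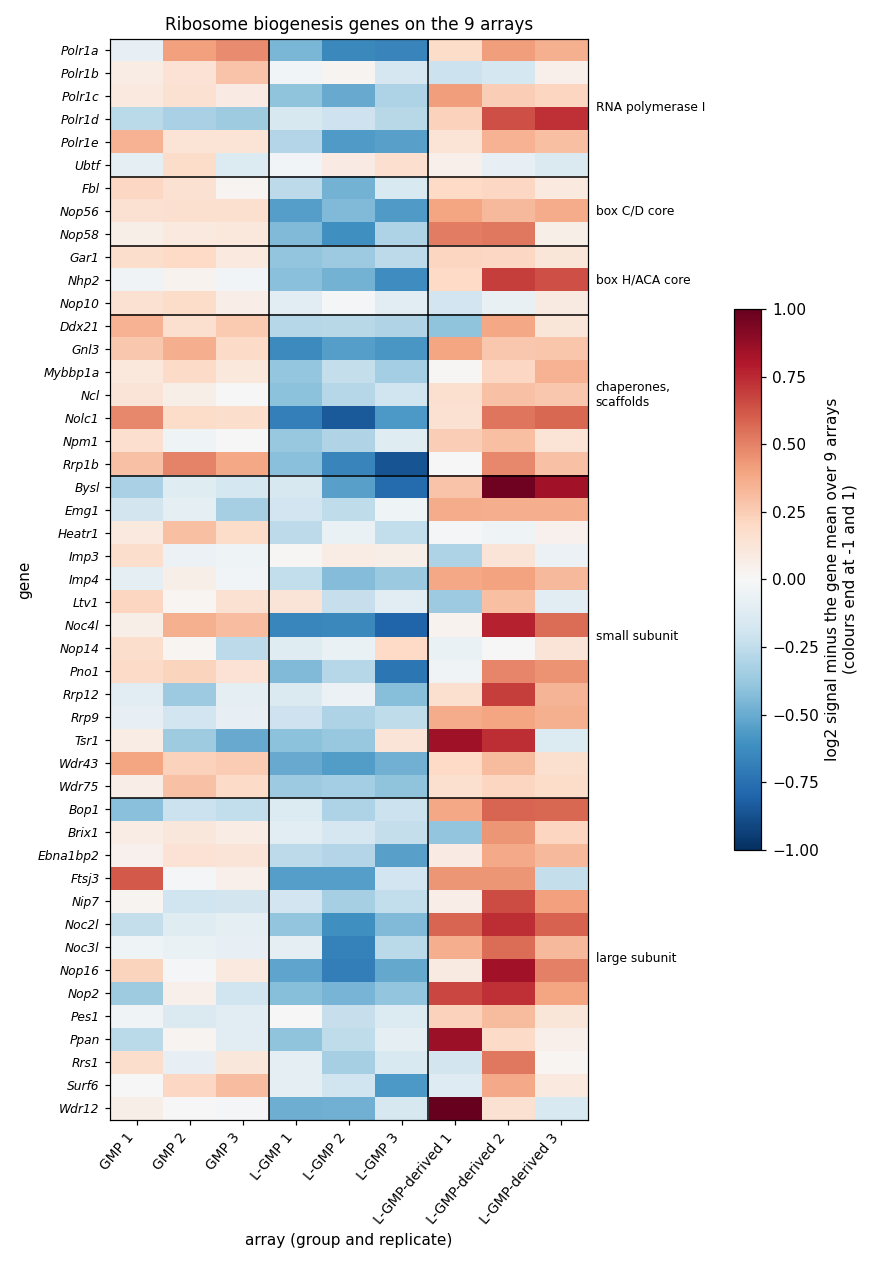
Log2 signal of each of the 47 tested genes on the 9 arrays (columns, by group and replicate) minus the gene's mean over the arrays, with genes grouped by role and blue for below and red for above the mean. The L-GMP columns are mostly blue (array medians -0.29, -0.34 and -0.28) and the L-GMP-derived columns mostly red (0.18, 0.38 and 0.27), while GMP lies near the mean.

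**Figure D2:**
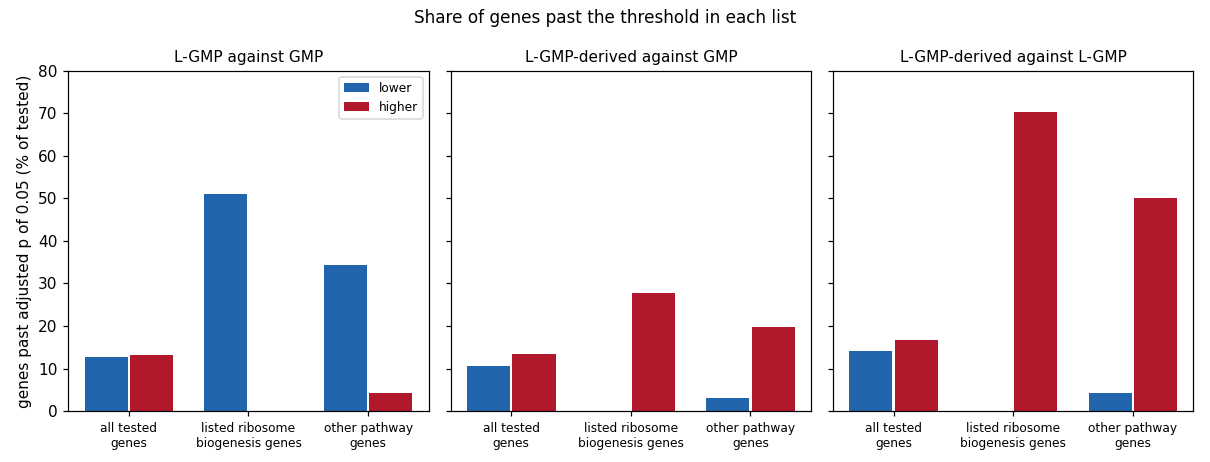
Percentage of tested genes called lower (blue) or higher (red) in each of the 3 comparisons, for all 8965 tested genes, for the 47 listed ribosome biogenesis genes and for 96 other genes of the pathway. The listed genes were lower only in L-GMP against GMP (51.1%), and were higher in 27.7% and 70.2% in the comparisons of L-GMP-derived cells with GMP and with L-GMP.

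The changes were moderate in size. Folds of the called genes lay between 1.15 and 2.06 in L-GMP against GMP, where 10 of 24 reached 1.5-fold. In L-GMP-derived cells they lay between 1.15 and 1.87 against GMP, with 6 of 13 at 1.5-fold or more, and between 1.27 and 2.28 against L-GMP, with 25 of 33. Without L-GMP-derived replicate 1, 29 genes fell in L-GMP against GMP, 15 rose in L-GMP-derived cells against GMP and 35 rose against L-GMP. Without GMP replicate 3, 8 genes rose in L-GMP-derived cells against GMP, in place of 13. The shares of all tested genes called without these arrays are not given here. These counts therefore show only how the calls depend on single arrays.

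Since many of these genes moved together, promoters of 5 of them are printed with the motif each holds. RefSeq windows of the GRCm38.p6 assembly, from 250 bases before to 50 after the start, were at hand for 48 of the 53 genes, in 57 windows. The canonical E-box CACGTG, the sequence that Myc and Max bind, was in 8 of the 57 windows (14.0%) and in 7.8% of the 21263 windows of all protein-coding genes. The ETS family motif CCGGAAGT, searched on both strands (ACTTCCGG on the other), was in 15 windows (26.3%), against 5.1% of all windows. Both motifs were in 2 genes, Ltv1 and Tsr1, neither was in 28 genes, and no E-box overlapped an ETS motif. A match is a description of the letters and shows neither binding nor a cause. The first 2 windows below hold an E-box and the last 3 an ETS motif, in capitals, and the 5 were taken from genes that fell in L-GMP against GMP. They lie at chr17:71615965-71616264 on the plus strand (Wdr43), chr11:17211540-17211839 on the minus strand (Pno1), chr3:129831347-129831646 on the minus strand (Gar1), chr11:51619523-51619822 on the plus strand (Nhp2) and chr17:46247996-46248295 on the minus strand (Polr1c), and are printed 5′ to 3′ along the gene.
Wdr43: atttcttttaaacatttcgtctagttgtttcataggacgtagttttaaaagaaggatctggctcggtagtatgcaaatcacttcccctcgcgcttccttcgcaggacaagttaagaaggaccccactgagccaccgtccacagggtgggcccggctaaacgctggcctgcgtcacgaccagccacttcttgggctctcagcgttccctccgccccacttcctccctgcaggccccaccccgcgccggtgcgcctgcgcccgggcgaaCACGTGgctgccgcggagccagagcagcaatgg
Pno1: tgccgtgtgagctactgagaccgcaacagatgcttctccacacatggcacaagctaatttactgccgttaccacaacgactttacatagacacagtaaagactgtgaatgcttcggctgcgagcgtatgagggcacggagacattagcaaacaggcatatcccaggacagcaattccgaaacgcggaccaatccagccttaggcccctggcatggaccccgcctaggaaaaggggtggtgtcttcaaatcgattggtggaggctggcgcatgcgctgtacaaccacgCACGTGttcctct
Gar1: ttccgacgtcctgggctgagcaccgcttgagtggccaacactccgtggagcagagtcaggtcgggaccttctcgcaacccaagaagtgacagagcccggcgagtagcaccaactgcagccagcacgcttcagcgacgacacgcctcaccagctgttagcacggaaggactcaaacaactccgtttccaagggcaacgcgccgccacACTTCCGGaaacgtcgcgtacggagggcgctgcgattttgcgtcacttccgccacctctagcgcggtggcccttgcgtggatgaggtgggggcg
Nhp2: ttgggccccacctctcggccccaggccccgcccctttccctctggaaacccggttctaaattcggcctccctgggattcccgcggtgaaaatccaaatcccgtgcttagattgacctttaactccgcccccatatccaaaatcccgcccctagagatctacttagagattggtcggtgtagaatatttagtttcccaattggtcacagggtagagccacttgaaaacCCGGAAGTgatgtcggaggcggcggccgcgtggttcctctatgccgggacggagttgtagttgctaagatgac
Polr1c: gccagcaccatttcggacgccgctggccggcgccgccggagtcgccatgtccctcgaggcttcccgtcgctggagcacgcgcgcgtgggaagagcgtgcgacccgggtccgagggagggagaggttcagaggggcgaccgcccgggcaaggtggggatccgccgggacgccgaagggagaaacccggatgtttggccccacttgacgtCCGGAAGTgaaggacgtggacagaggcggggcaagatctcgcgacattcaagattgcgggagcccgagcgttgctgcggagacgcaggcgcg
The E-box starts 18 bases after the start of Wdr43 and 38 bases after that of Pno1, and the ETS motif lies within 50 bases before the start of the other 3 genes. The remaining E-box genes were Imp4, Mybbp1a, Nop2, Pes1, Ltv1 and Tsr1. In L-GMP against GMP 4 of the 8 E-box genes fell (50.0%: Wdr43, Pno1, Imp4 and Mybbp1a), as did 6 of the 14 ETS genes (42.9%: Ebna1bp2, Gar1, Heatr1, Nhp2, Polr1c and Polr1e). Both shares are near the 51.1% of all 47 genes.

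Of the 6 measured genes of RNA polymerase I and its factor Ubtf, Polr1a, Polr1c and Polr1e fell in L-GMP against GMP and none rose. Polr1a, the catalytic subunit of the enzyme, had signals of 1007, 1413 and 1478 in GMP, 774, 680.04 and 674 in L-GMP, and 1208, 1422 and 1358 in L-GMP-derived cells. All 3 L-GMP arrays were below all other arrays. Polr1a fell 1.81-fold (log2 difference -0.86 ± 0.15, adjusted p = 0.00204) in L-GMP against GMP and rose 1.87-fold (log2 difference 0.91 ± 0.15, adjusted p = 0.00128) in L-GMP-derived cells against L-GMP. Polr1e, an accessory subunit of this polymerase alone, read 319.96, 277 and 277 in GMP, 206, 169.8 and 173 in L-GMP, and 277, 321 and 310.4 in L-GMP-derived cells, with L-GMP again below all other arrays. The fall of Polr1e was 1.6-fold (log2 difference -0.67 ± 0.13, adjusted p = 0.00277), and its rise in L-GMP-derived cells against L-GMP was 1.66-fold (adjusted p = 0.00152).

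Polr1c and Polr1d form the pair of subunits that RNA polymerases I and III share, and their probe sets gave different patterns. Polr1c, whose promoter is printed above, read 1402, 1456 and 1383 in GMP, 988, 921 and 1055 in L-GMP, and 1746, 1554 and 1522 in L-GMP-derived cells. Its L-GMP arrays were the lowest and its L-GMP-derived arrays the highest, without overlap, and it fell 1.43-fold (log2 difference -0.52 ± 0.10, adjusted p = 0.00286) in L-GMP against GMP. A dimmer probe set of Polr1c gave a log2 difference of -0.05 (adjusted p = 0.897) in the same comparison, and the one described may bind related transcripts. Polr1d read 2194, 2103 and 2059 in GMP, 2360.5, 2287 and 2172 in L-GMP, and 3091, 4123 and 4375 in L-GMP-derived cells. GMP and L-GMP lay close together and every L-GMP-derived array lay above both, with rises of 1.8-fold (log2 difference 0.85 ± 0.11, adjusted p = 0.000454) against GMP and 1.68-fold (adjusted p = 0.000779) against L-GMP. A further probe set of Polr1d was not called, with log2 differences of 0.31 (adjusted p = 0.0938) and -0.02 (adjusted p = 0.929). Polr1b, which forms the active centre with Polr1a, read 242, 252 and 279 in GMP, 225, 233 and 203 in L-GMP, and 197, 203 and 237 in L-GMP-derived cells. It was not called in any comparison, and its log2 difference between L-GMP and GMP was -0.22 (95% interval -0.49 to 0.04). Ubtf, the factor that opens ribosomal DNA for this polymerase, read 525, 637 and 512 in GMP, 549.8, 595 and 632 in L-GMP, and 583, 531 and 509 in L-GMP-derived cells and was not called either (L-GMP against GMP 0.09, interval -0.19 to 0.37).

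The box C/D core proteins, which carry the guide RNAs for ribose methylation of rRNA, fell in L-GMP for all 3 genes and rose for all 3 in L-GMP-derived cells against L-GMP. Nop56, a scaffold of the particle, read 3653, 3684 and 3669 in GMP, 2242, 2418 and 2224 in L-GMP, and 4319, 4120.2 and 4265 in L-GMP-derived cells. The spread within each group was small, the 3 groups did not overlap, and the order was L-GMP, GMP, L-GMP-derived. Nop56 fell 1.6-fold (log2 difference -0.68 ± 0.06, adjusted p = 1.67e-05) in L-GMP against GMP and rose 1.85-fold (log2 difference 0.88 ± 0.06, adjusted p = 2.92e-06) in L-GMP-derived cells against L-GMP. Its rise against GMP was 1.15-fold (adjusted p = 0.0218), and this call ended without L-GMP-derived replicate 3 or any 1 GMP array (adjusted p = 0.0671 to 0.0791). Fbl (fibrillarin), the methyltransferase of the particle, read 1886, 1818 and 1664 in GMP, 1361, 1178 and 1472 in L-GMP, and 1874, 1884 and 1750.2 in L-GMP-derived cells. It was lower on each L-GMP array than on any other (1.34-fold, adjusted p = 0.0113 against GMP), and GMP and L-GMP-derived cells overlapped. Nop58, the partner scaffold of Nop56, read 457, 470.4 and 471 in GMP, 323, 288 and 354 in L-GMP, and 626, 634 and 457 in L-GMP-derived cells. It fell 1.45-fold (log2 difference -0.54 ± 0.15, adjusted p = 0.021) in L-GMP against GMP, a call that ended without L-GMP replicate 1 or 2 or any 1 GMP array (adjusted p = 0.0504 to 0.0791). Its rise in L-GMP-derived cells against L-GMP was 1.77-fold, adjusted p = 0.00196.

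The box H/ACA core converts uridine to pseudouridine in rRNA and also belongs to telomerase. All 3 measured genes of this core fell in L-GMP, while Dkc1, the synthase itself, was not analysed here. Gar1, whose promoter is printed above, read 3566, 3624 and 3383 in GMP, 2401, 2451 and 2638 in L-GMP, and 3667, 3637 and 3438 in L-GMP-derived cells. L-GMP was below all other arrays and the others overlapped, with a fall of 1.41-fold (log2 difference -0.50 ± 0.06, adjusted p = 0.000244) against GMP and a rise of 1.43-fold (log2 difference 0.52 ± 0.06, adjusted p = 0.000164) in L-GMP-derived cells against L-GMP. Nhp2, a core protein that binds the guide RNA and whose promoter is also shown, read 2215, 2322 and 2226 in GMP, 1699, 1631 and 1472 in L-GMP, and 2595, 3649 and 3540.3 in L-GMP-derived cells. The 3 groups did not overlap and rose in the order L-GMP, GMP, L-GMP-derived. Nhp2 was 1 of the 7 genes that rose at least 2-fold in L-GMP-derived cells against L-GMP, by 2.02-fold (log2 difference 1.01 ± 0.12, adjusted p = 0.000174), and it also rose against GMP (1.43-fold, adjusted p = 0.0114). Its fall in L-GMP against GMP (1.41-fold, adjusted p = 0.0132) ended as a call when L-GMP replicate 3 or GMP replicate 2 was left out (adjusted p = 0.0501 and 0.052). Nop10, the small protein that bridges the synthase and the RNA, read 7191, 7352 and 6803 in GMP, 6018, 6433 and 6042 in L-GMP, and 5673, 6156 and 6885 in L-GMP-derived cells. It fell only 1.15-fold (log2 difference -0.21 ± 0.07, adjusted p = 0.0396) in L-GMP against GMP, and this call ended without L-GMP replicate 1 or 3 or any 1 GMP array (adjusted p = 0.0559 to 0.131). L-GMP-derived cells overlapped L-GMP, and the difference between them was 0.01 in log2 (95% interval -0.13 to 0.16).

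Nucleolar chaperones and scaffolds fell in L-GMP for all 7 measured genes, and 6 of the 7 rose in L-GMP-derived cells against L-GMP. By their brightest probe sets, none was called in L-GMP-derived cells against GMP. Other probe sets of Rrp1b, Mybbp1a, Ddx21 and Ncl were called there. Rrp1b, a nucleolar factor of rRNA processing, read 1239.8, 1427 and 1325 in GMP, 756, 639 and 558 in L-GMP, and 1012, 1410.1 and 1244 in L-GMP-derived cells. Each L-GMP array was below all others, and the fall against GMP of 2.06-fold (log2 difference -1.04 ± 0.15, adjusted p = 0.000645) was the largest among the 47 genes in that comparison. Its other probe sets gave smaller log2 differences, -0.34 (adjusted p = 0.0428) and -0.27 (adjusted p = 0.138). In L-GMP-derived cells against GMP, 1 of the 3 probe sets of Rrp1b was called higher, but not the brightest. Nolc1 (Nopp140), a scaffold that binds box C/D and box H/ACA particles, read 2425, 1967 and 1962 in GMP, 1079.7, 968 and 1164 in L-GMP, and 1932, 2512 and 2578 in L-GMP-derived cells. GMP and L-GMP-derived cells overlapped and L-GMP lay below both. It fell 1.97-fold (log2 difference -0.98 ± 0.13, adjusted p = 0.000454) against GMP and rose 2.17-fold (log2 difference 1.12 ± 0.13, adjusted p = 0.000167) in L-GMP-derived cells against L-GMP. Its further tested probe set had the same calls (log2 differences -0.90 and 1.26). Gnl3 (nucleostemin), a nucleolar GTPase abundant in stem and cancer cells, read 3105, 3314 and 2948 in GMP, 1654, 1762 and 1722 in L-GMP, and 3380.4, 3111 and 3121 in L-GMP-derived cells. It fell 1.82-fold (log2 difference -0.87 ± 0.07, adjusted p = 1.61e-05) in L-GMP against GMP and was close to GMP in L-GMP-derived cells (log2 difference 0.04, 95% interval -0.12 to 0.20).

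Npm1 (nucleophosmin), the histone and ribosomal protein chaperone that is often mutated in human acute myeloid leukemia, read 6333, 5465 and 5620.3 in GMP, 4335, 4581 and 5179 in L-GMP, and 6672, 6949 and 6198 in L-GMP-derived cells. L-GMP lay below all other arrays. The fall against GMP was 1.24-fold (log2 difference -0.31 ± 0.08, adjusted p = 0.0142), with adjusted p = 0.0546 and 0.055 when replicate 1 of L-GMP or of GMP was left out. The rise in L-GMP-derived cells against L-GMP was 1.41-fold, adjusted p = 0.000858. Mybbp1a, a Myb-binding protein of rRNA processing, read 2301, 2452 and 2299.6 in GMP, 1641, 1814 and 1689 in L-GMP, and 2165, 2469.6 and 2730.01 in L-GMP-derived cells. Its fall against GMP was 1.37-fold, adjusted p = 0.00497 and its rise in L-GMP-derived cells against L-GMP 1.43-fold, adjusted p = 0.00219. A further probe set of Mybbp1a also fell in L-GMP (log2 difference -1.08) and, unlike the one described, in L-GMP-derived cells against GMP (-0.63, adjusted p = 0.0209). Ddx21, an RNA helicase that couples transcription and rRNA processing, read 2384, 2089 and 2247 in GMP, 1532, 1544 and 1519.98 in L-GMP, and 1413, 2444 and 2030.4 in L-GMP-derived cells. It was lower in L-GMP than in GMP (1.46-fold, adjusted p = 0.0317), and it lost this call on omission of any 1 of these 6 arrays (adjusted p = 0.0604 to 0.0965). Without L-GMP-derived replicate 1, its lowest array there, Ddx21 rose in L-GMP-derived cells against L-GMP (adjusted p = 0.00138). A dimmer probe set of Ddx21 rose in L-GMP-derived cells against GMP (log2 difference 0.84, adjusted p = 0.00353) and was not called in L-GMP against GMP (0.03).

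Ncl (nucleolin), an RNA-binding protein of the nucleolus that acts from transcription to subunit assembly, has 4 probe sets, and they differed. The brightest, 1456528_x_at, read 3144, 2994 and 2871 in GMP, 2162, 2369 and 2505 in L-GMP, and 3209, 3529 and 3469 in L-GMP-derived cells. L-GMP was lowest and L-GMP-derived cells highest without overlap, and Ncl fell 1.28-fold (log2 difference -0.36 ± 0.07, adjusted p = 0.00539) in L-GMP against GMP and rose 1.45-fold (log2 difference 0.54 ± 0.07, adjusted p = 0.000437) in L-GMP-derived cells against L-GMP. In L-GMP against GMP, 1415772_at and 1415773_at fell more, by 2.34-fold and 2.17-fold (adjusted p = 0.000249 and 7.58e-05), while 1415771_at did not pass the test (log2 difference -0.05, adjusted p = 0.894). In L-GMP-derived cells against GMP, 1415771_at rose (log2 difference 0.80, adjusted p = 0.0176) and 1415773_at fell (-0.37, adjusted p = 0.0404). Ncl was the only 1 of 23 genes with 2 or more tested probe sets to have opposite calls in a comparison. All 4 of its probe sets rose in L-GMP-derived cells against L-GMP. The direction of Ncl between L-GMP-derived cells and GMP therefore depends on the probe set.

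**Figure D3:**
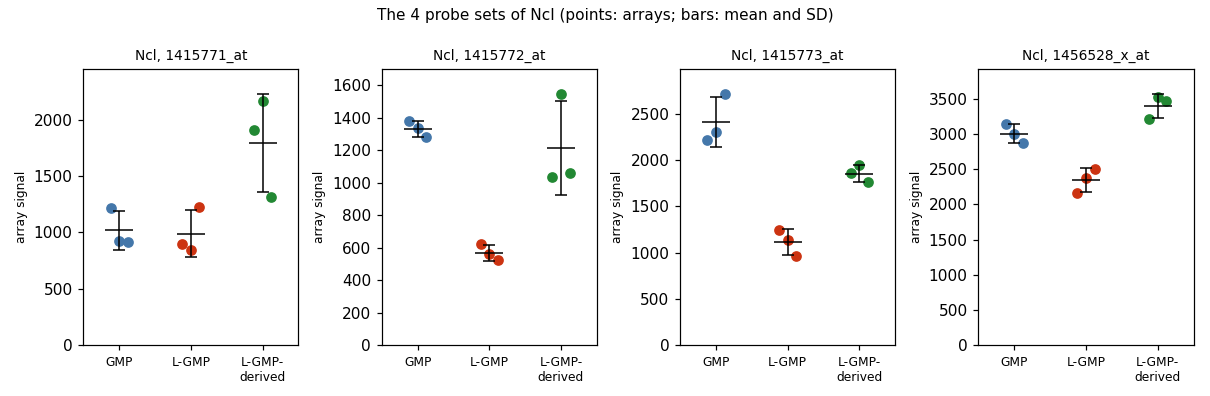
Array signal of the 4 probe sets of Ncl in GMP (blue), L-GMP (red) and L-GMP-derived cells (green), with points for arrays and black bars for the mean and SD of 3 arrays. In 1415772_at and 1415773_at L-GMP is far below both other groups. In 1415771_at L-GMP overlaps GMP and L-GMP-derived cells are higher.

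**Figure D4:**
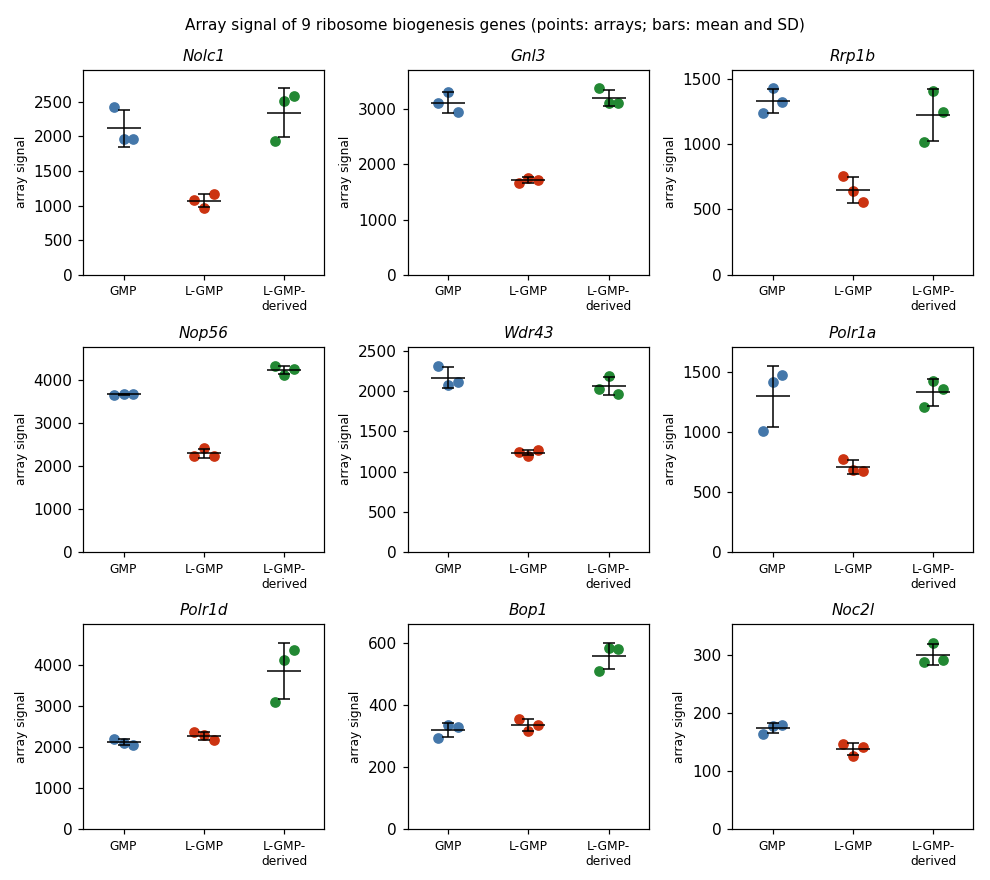
Array signal (linear scale from 0) of 9 ribosome biogenesis genes in GMP (blue), L-GMP (red) and L-GMP-derived cells (green), with points for arrays and black bars for the mean and SD of 3 arrays. Nolc1, Gnl3, Rrp1b, Nop56, Wdr43 and Polr1a are lowest on the L-GMP arrays, whereas Polr1d, Bop1 and Noc2l are highest on the L-GMP-derived arrays.

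Of 14 tested small subunit genes, 6 fell in L-GMP against GMP (Noc4l, Wdr43, Pno1, Wdr75, Heatr1 and Imp4), and 9 rose in L-GMP-derived cells against L-GMP. These shares were 42.9% and 64.3%, where 12.8% of all tested genes fell and 16.6% rose. Heatr1, Wdr43 and Wdr75 are counterparts of yeast UtpA proteins, which bind the nascent precursor early. Utp4 and Nol11, further proteins of that complex named after their values were seen, were not called in L-GMP against GMP (adjusted p = 0.226 and 0.987). Wdr43, whose E-box promoter is printed above, read 2320.1, 2072 and 2110.2 in GMP, 1247, 1198 and 1263 in L-GMP, and 2027, 2195 and 1971 in L-GMP-derived cells. GMP and L-GMP-derived cells overlapped, and L-GMP was lower than both, by 1.75-fold (log2 difference -0.81 ± 0.08, adjusted p = 7.09e-05) against GMP. Its further probe set gave -0.69 in log2 (adjusted p = 0.000774). Wdr75 read 1975, 2311 and 2150.3 in GMP, 1468, 1488 and 1431 in L-GMP, and 2115, 2196 and 2139 in L-GMP-derived cells and was likewise lowest in L-GMP (1.46-fold, adjusted p = 0.000689), whereas a dimmer probe set of Wdr75 did not pass the test (0.06, adjusted p = 0.848). Heatr1 read 2934, 3391 and 3118 in GMP, 2287, 2625 and 2320.2 in L-GMP, and 2726, 2663 and 2829 in L-GMP-derived cells. Its order was L-GMP, L-GMP-derived, GMP without overlap, and its fall in L-GMP was 1.31-fold (log2 difference -0.38 ± 0.08, adjusted p = 0.00497). L-GMP-derived cells did not differ from L-GMP past the threshold (0.19, 95% interval 0.01 to 0.36).

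Noc4l, a partner of Nop14 in nuclear export of the small subunit in yeast, read 754, 924 and 894 in GMP, 461, 463 and 416 in L-GMP, and 741, 1233 and 1068 in L-GMP-derived cells. L-GMP lay below all other arrays, 1.92-fold (log2 difference -0.94 ± 0.18, adjusted p = 0.00313) below GMP and 2.22-fold (adjusted p = 0.000807) below L-GMP-derived cells. This probe set may bind related transcripts, and in the other probe sets of Noc4l the log2 differences between L-GMP and GMP were -0.08 and 0.03, neither past the threshold. Both rose in L-GMP-derived cells against L-GMP (0.35 and 0.35). Pno1, a late assembly factor whose E-box promoter is printed above, read 1523, 1559.6 and 1473 in GMP, 984, 1095 and 808 in L-GMP, and 1304, 1872 and 1822 in L-GMP-derived cells. It fell 1.59-fold (log2 difference -0.67 ± 0.15, adjusted p = 0.00929) in L-GMP against GMP and rose 1.72-fold, adjusted p = 0.00335, in L-GMP-derived cells against L-GMP. Imp4, a U3 particle protein, read 621, 692 and 655 in GMP, 561, 493 and 515 in L-GMP, and 873, 881 and 836 in L-GMP-derived cells. The 3 groups did not overlap, and this probe set of Imp4 was called in all 3 comparisons. A dimmer probe set of Imp4 was called in none of them. Its log2 differences were -0.16 in L-GMP against GMP, and 0.08 and 0.24 in L-GMP-derived cells against GMP and L-GMP. The call of the brighter probe set of Imp4 in L-GMP against GMP was 1.25-fold, adjusted p = 0.0441. This call ended without L-GMP replicate 2 or 3, L-GMP-derived replicate 2 or 3 or any 1 GMP array (adjusted p = 0.0524 to 0.161). Its rise in L-GMP-derived cells against GMP (1.32-fold, adjusted p = 0.0203) ended without GMP replicate 1 or 3 or L-GMP-derived replicate 2 (adjusted p = 0.0567 to 0.076).

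Other small subunit factors did not differ past the threshold between L-GMP and GMP but were highest in L-GMP-derived cells. Bysl (bystin), a late assembly factor, read 507, 583 and 563 in GMP, 568, 436 and 372 in L-GMP, and 773, 1246 and 1136 in L-GMP-derived cells. L-GMP and GMP overlapped, and L-GMP-derived cells were higher than both, by 1.87-fold (log2 difference 0.91 ± 0.20, adjusted p = 0.00821) over GMP and 2.28-fold (log2 difference 1.19 ± 0.20, adjusted p = 0.00137) over L-GMP, the largest rise among the 47 genes in both comparisons. A dimmer probe set of Bysl was not called in either (-0.23 and 0.52 in log2, adjusted p = 0.582 and 0.172). Emg1, which methylates a pseudouridine of the small subunit rRNA, read 1588, 1689 and 1434 in GMP, 1575, 1508 and 1747 in L-GMP, and 2330.4, 2318 and 2313 in L-GMP-derived cells, with a rise of 1.48-fold (log2 difference 0.57 ± 0.09, adjusted p = 0.00133) against GMP. Rrp9, the protein specific to the U3 particle, read 531, 492 and 529.5 in GMP, 485, 453 and 470.3 in L-GMP, and 726, 737 and 718 in L-GMP-derived cells and rose 1.41-fold, adjusted p = 0.00561, against GMP. Rrp12, needed for export of both subunits in yeast, read 161, 136 and 164 in GMP, 158, 167 and 129.7 in L-GMP, and 196, 283 and 221 in L-GMP-derived cells. Its rise against GMP (1.5-fold, adjusted p = 0.0252) ended as a call without L-GMP-derived replicate 2 or 3 or any 1 GMP array (adjusted p = 0.05 to 0.101). Its rise against L-GMP (1.53-fold, adjusted p = 0.0176) ended without L-GMP replicate 3 (adjusted p = 0.068) or L-GMP-derived replicate 2 (adjusted p = 0.0668).

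The remaining small subunit genes were not called in any comparison. Imp3, Imp4's partner in the U3 particle, averaged 569 ± 52.7 in GMP, 577 ± 13.9 in L-GMP and 532 ± 79.6 in L-GMP-derived cells (SD, n = 3). Nop14 averaged 755 ± 113 in GMP, 766 ± 94.8 in L-GMP and 773 ± 52.8 in L-GMP-derived cells, and Ltv1 averaged 362 ± 24.0 in GMP, 316 ± 41.1 in L-GMP and 323 ± 76.8 in L-GMP-derived cells. The groups overlapped for all 3 of these genes. Tsr1, a late pre-ribosome factor, was dim at 145, 107 and 97.1 in GMP, 104, 106 and 150.3 in L-GMP, and 248, 230.3 and 125 in L-GMP-derived cells. Its higher level in L-GMP-derived cells came with adjusted p = 0.0685 against GMP and 0.0745 against L-GMP, and without L-GMP-derived replicate 3, the lowest of its group, these were 0.0105 and 0.0101.

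Of 14 tested large subunit genes, only Nop16 and Ebna1bp2 fell in L-GMP against GMP (14.3%, near the 12.8% of all tested genes), whereas 5 rose in L-GMP-derived cells against GMP and 9 against L-GMP. These rises were 35.7% and 64.3% of the 14 genes, against 13.4% and 16.6% of all tested genes. Nop16 read 388, 329 and 355 in GMP, 231, 206 and 233 in L-GMP, and 353, 595 and 470.2 in L-GMP-derived cells. It fell 1.6-fold (log2 difference -0.68 ± 0.17, adjusted p = 0.0164) in L-GMP against GMP, a call that ended without L-GMP replicate 2 (adjusted p = 0.0593), GMP replicate 1 (adjusted p = 0.0586) or GMP replicate 3 (adjusted p = 0.0544). It rose 2.07-fold, adjusted p = 0.00128, in L-GMP-derived cells against L-GMP. Ebna1bp2, the partner of Rrs1 in large subunit assembly in yeast, read 2086, 2238 and 2218 in GMP, 1689.9, 1658 and 1391 in L-GMP, and 2154, 2646 and 2545 in L-GMP-derived cells, with L-GMP below all other arrays (1.39-fold, adjusted p = 0.00772 against GMP). A dimmer probe set of Ebna1bp2 was not called there (-0.16, adjusted p = 0.435) but rose in L-GMP-derived cells against GMP (0.78, adjusted p = 0.00227).

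Pes1, Bop1 and Wdr12 form the PeBoW complex, which is required for large subunit rRNA processing, and none of them was called in L-GMP against GMP. Bop1 read 293, 337 and 331 in GMP, 355, 316 and 337 in L-GMP, and 512, 586 and 583 in L-GMP-derived cells. GMP and L-GMP overlapped and L-GMP-derived cells were higher than both, by 1.75-fold (log2 difference 0.81 ± 0.12, adjusted p = 0.000662) over GMP and 1.67-fold (adjusted p = 0.000904) over L-GMP. Pes1 read 477, 441 and 452 in GMP, 487, 416 and 445 in L-GMP, and 574, 609 and 533 in L-GMP-derived cells. Every L-GMP-derived array was above the rest, but the difference from GMP missed the threshold (1.25-fold, adjusted p = 0.0614). The rise of Pes1 over L-GMP was 1.27-fold, adjusted p = 0.0391, a call that ended without L-GMP replicate 2 or 3, L-GMP-derived replicate 2 or 3 or any 1 GMP array (adjusted p = 0.053 to 0.134). Wdr12 read 423, 406 and 403 in GMP, 289, 290.4 and 363 in L-GMP, and 863, 450.5 and 365 in L-GMP-derived cells. Its L-GMP-derived arrays were spread widely, with replicate 1 far above the others, and no comparison was called. Without L-GMP-derived replicate 3 the rise over L-GMP had adjusted p = 0.0167, and without L-GMP-derived replicate 1 the fall in L-GMP against GMP had 0.036. A further probe set of Wdr12 rose in L-GMP-derived cells against both GMP (0.91, adjusted p = 0.00355) and L-GMP (0.88, adjusted p = 0.00329).

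Noc2l and Noc3l are relatives of yeast proteins that move pre-ribosomes from the nucleolus to the nucleoplasm. Noc2l read 164, 177 and 180.01 in GMP, 147, 126 and 142 in L-GMP, and 288, 321 and 291 in L-GMP-derived cells. The 3 groups did not overlap, and L-GMP-derived cells were higher by 1.73-fold (log2 difference 0.79 ± 0.11, adjusted p = 0.000711) than GMP and by 2.17-fold (log2 difference 1.12 ± 0.11, adjusted p = 6e-05) than L-GMP. Its fall in L-GMP against GMP missed the threshold (adjusted p = 0.0573) but passed it without L-GMP-derived replicate 1 (adjusted p = 0.049). Noc3l was dim at 164, 161 and 159.7 in GMP, 158, 106 and 139.9 in L-GMP, and 217, 249 and 211 in L-GMP-derived cells. It rose 1.7-fold, adjusted p = 0.00391, in L-GMP-derived cells against L-GMP. Its rise against GMP (1.39-fold, adjusted p = 0.0457) ended as a call without any 1 of the GMP or L-GMP-derived arrays or without L-GMP replicate 3 (adjusted p = 0.0508 to 0.14).

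Nop2, a methyltransferase of the large subunit rRNA with an E-box in its promoter, read 169, 226 and 189 in GMP, 161, 157 and 166 in L-GMP, and 345, 360.1 and 286 in L-GMP-derived cells. L-GMP-derived cells lay above all other arrays, by 1.7-fold (log2 difference 0.77 ± 0.14, adjusted p = 0.00274) over GMP and 2.04-fold (log2 difference 1.03 ± 0.14, adjusted p = 0.000374) over L-GMP. Nip7, needed for rRNA processing, read 578, 492 and 497 in GMP, 495, 448 and 477 in L-GMP, and 593, 886 and 752 in L-GMP-derived cells. Its rise in L-GMP-derived cells against GMP (1.41-fold, adjusted p = 0.0375) ended as a call without L-GMP replicate 2, GMP replicate 2 or 3 or L-GMP-derived replicate 2 or 3 (adjusted p = 0.0523 to 0.125), and a dimmer probe set of Nip7 was not called (-0.19). Ppan, a large subunit assembly factor, read 454, 557 and 508 in GMP, 413, 459 and 512 in L-GMP, and 992, 623 and 567 in L-GMP-derived cells. It rose in L-GMP-derived cells against L-GMP (1.53-fold, adjusted p = 0.0378), with replicate 1 well above the other arrays. This call ended without any 1 L-GMP array, L-GMP-derived replicate 1 or GMP replicate 2 or 3 (adjusted p = 0.0508 to 0.111).

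Ftsj3, Surf6, Rrs1 and Brix1 were not called in any comparison. Ftsj3, a rRNA methyltransferase, was dim at 194, 125 and 132 in GMP, 86.9, 86.6 and 112 in L-GMP, and 172, 173 and 108 in L-GMP-derived cells, and its lower level in L-GMP had adjusted p = 0.0636 against GMP. Without L-GMP-derived replicate 1 or 3 this was 0.0467 or 0.0361. Its higher level in L-GMP-derived cells than in L-GMP (1.56-fold, adjusted p = 0.0578) was called without L-GMP-derived replicate 3 (adjusted p = 0.0176) or with GMP replicate 1 left out (adjusted p = 0.043). Surf6, a nucleolar matrix protein, averaged 976 ± 104 in GMP, 713 ± 119 in L-GMP and 946 ± 168 in L-GMP-derived cells (SD, n = 3). Without L-GMP-derived replicate 1 it was called lower in L-GMP than in GMP (adjusted p = 0.0316) and in L-GMP-derived cells (adjusted p = 0.0268), and without L-GMP-derived replicate 2 lower in L-GMP than in GMP (adjusted p = 0.0493). Rrs1 averaged 243 ± 22.1 in GMP, 203 ± 17.8 in L-GMP and 257 ± 67.7 in L-GMP-derived cells. Brix1 averaged 1539 ± 24.0 in GMP, 1286 ± 57.2 in L-GMP and 1585 ± 440.2 in L-GMP-derived cells, with L-GMP-derived replicate 1 at 1105 and the other arrays of that group at 1969 and 1681. Without that array Brix1 was called lower in L-GMP than in GMP (adjusted p = 0.0355) and than in L-GMP-derived cells (adjusted p = 0.00197), as a further probe set was with all arrays (adjusted p = 0.0252 and 0.0264).

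**Figure D5:**
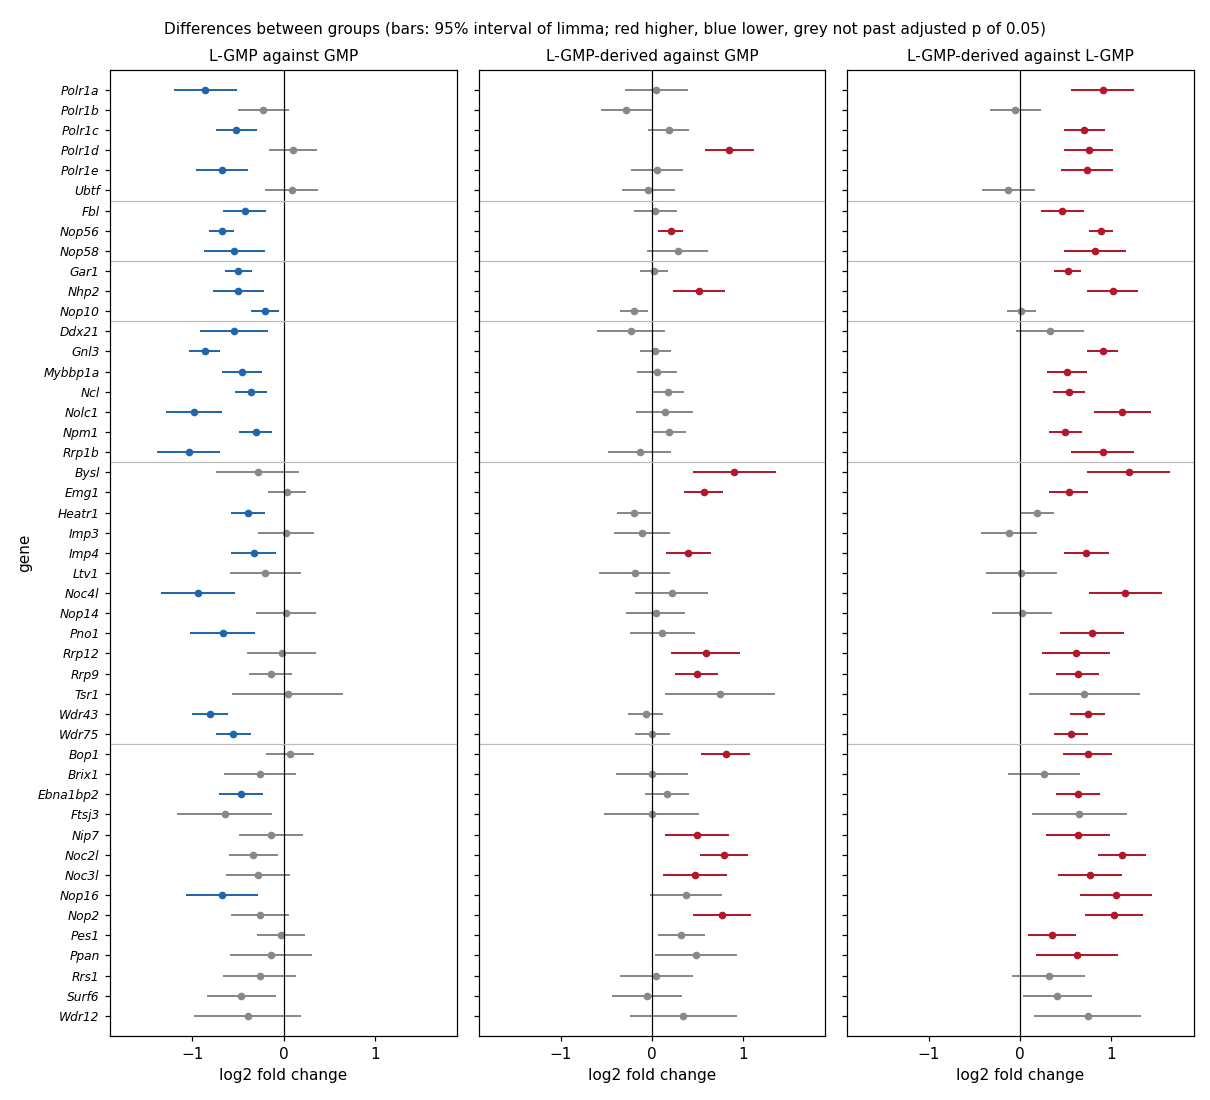
Log2 fold change of the 47 tested genes in each of the 3 comparisons (points, with 95% intervals from limma), grouped by role from RNA polymerase I at the top to the large subunit at the bottom. Blue marks the 24 genes lower in L-GMP than in GMP, red the 13 and 33 genes higher in L-GMP-derived cells than in GMP and in L-GMP, and grey the genes not past the threshold.

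By role, the calls in L-GMP against GMP covered 3 of 6 RNA polymerase I genes, 3 of 3 box C/D genes, 3 of 3 box H/ACA genes, 7 of 7 chaperones and scaffolds, 6 of 14 small subunit genes and 2 of 14 large subunit genes. Over all tested genes 12.8% fell in this comparison, and the large subunit share (14.3%) was near that. In L-GMP-derived cells against GMP, 0 of 7 chaperones and scaffolds were called by their brightest probe sets, and 5 of 14 genes of each subunit. Other probe sets of Rrp1b, Ddx21, Mybbp1a and Ncl were called in that comparison. For each subunit the share that rose was 35.7%, against 13.4% of all tested genes. Whether the roles differ from each other was not tested. Where 2 or more probe sets of a gene were tested, all had the same result in 12 of 23 genes for L-GMP against GMP. They did in 11 for L-GMP-derived cells against GMP and in 13 for L-GMP-derived cells against L-GMP. These counts include genes with no probe set called. Such genes were Polr1d, Ubtf, Bysl, Wdr12 and Nip7 in L-GMP against GMP, and Ubtf and Nop10 in L-GMP-derived cells against L-GMP. In L-GMP-derived cells against GMP, only Nhp2 of these genes was called by all its probe sets.

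Further genes of the pathway were measured too. Of 122 listed for their known roles, with earlier results of these data known, 96 were tested, and they are no independent evidence of a direction. In L-GMP against GMP 33 of them fell (34.4%, against 12.8% of all tested genes) and 4 rose (4.17%, against 13.1%), with a median log2 difference of -0.22. The largest falls were in Sdad1 (2.45-fold, adjusted p = 5.96e-05), Ftsj1 (2.12-fold, adjusted p = 0.000513) and Tsr2 (2.08-fold, adjusted p = 0.000193). Ftsj1 was counted among the large subunit factors, but its place in this pathway is doubtful. Tcof1 (treacle), a partner of Ubtf in ribosomal DNA transcription, fell 1.86-fold (adjusted p = 0.00291), and Naf1, an assembly factor of box H/ACA particles, fell 1.9-fold (adjusted p = 0.000319). Rrp36 went the other way, 2.59-fold higher (adjusted p = 4.53e-05). In L-GMP-derived cells 48 rose and 4 fell against L-GMP (50.0% and 4.17%, against 16.6% and 14.1% of all tested genes), with a median of 0.43. Against GMP 19 rose and 3 fell (19.8% and 3.12%, against 13.4% and 10.7%), with a median of 0.10. With weights for each array, 38 rose and 9 fell against GMP, beside the same 25.6% and 21.6% of all tested genes. Utp4 (2.32-fold, adjusted p = 0.00104) and Utp20 (2.22-fold, adjusted p = 0.000964), small subunit processome proteins, and Ruvbl2 (2.19-fold, adjusted p = 0.000231), an ATPase of box C/D assembly, rose most against L-GMP. The kinase Riok2, which acts late in small subunit maturation, fell 1.66-fold against GMP (adjusted p = 0.00195).

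Among these further genes, large subunit factors fell in L-GMP against GMP in 17 of 34 cases and rose in 1, and small subunit factors fell in 9 of 30 and rose in 2. Initiation and assembly factors fell in 5 of 18 and rose in 1, and genes of the RNA exosome, which trims rRNA ends, fell in 2 of 14 and rose in 0. The shares of falls were 50.0%, 30.0%, 27.8% and 14.3%, and that of the exosome was near the 12.8% of all tested genes. In L-GMP-derived cells against L-GMP, 15 of 34, 15 of 30, 12 of 18 and 6 of 14 rose in the same order. These were 44.1%, 50.0%, 66.7% and 42.9%, where 16.6% of all tested genes rose. Against GMP, 4, 8, 6 and 1 rose, and for large subunit factors (11.8%) and the exosome (7.14%) these shares were below the 13.4% of all tested genes. Without single arrays the number of further genes that rose in L-GMP-derived cells against GMP lay between 9 and 34, the highest without L-GMP-derived replicate 1. Without GMP replicate 3, 20 of them fell in L-GMP against GMP.

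Myc, the transcription factor known to drive ribosome biogenesis genes, read 1064, 1232 and 1169.8 in GMP, 587, 572 and 657 in L-GMP, and 1079.7, 996 and 1028 in L-GMP-derived cells. It fell 1.91-fold (log2 difference -0.93 ± 0.11, adjusted p = 0.000143) in L-GMP against GMP, rose 1.71-fold (log2 difference 0.78 ± 0.11, adjusted p = 0.000437) in L-GMP-derived cells against L-GMP and did not differ past the threshold between L-GMP-derived cells and GMP (-0.16, 95% interval -0.40 to 0.08). Mycn, a relative of Myc, had 1 probe set of 3 above the filter, which read 30.3, 5.85 and 3.58 in GMP, 5772, 4182 and 2286 in L-GMP, and 2681, 630.2 and 726 in L-GMP-derived cells. All GMP arrays of this probe set lay below the floor, so the difference is a bound against the floor. Mycn was at least 61.0-fold higher in L-GMP and at least 17.1-fold higher in L-GMP-derived cells than in GMP (adjusted p = 1.63e-05 and 0.000202). In L-GMP-derived cells against L-GMP it fell 3.56-fold (adjusted p = 0.0166), where Myc rose, and the arrays of the groups overlapped. The other probe sets of Mycn did not pass the filter. Mxi1, a Max partner that opposes Myc, read 195, 174 and 194 in GMP, 776, 623 and 636 in L-GMP, and 367, 583 and 483 in L-GMP-derived cells. It rose 3.6-fold (log2 difference 1.85 ± 0.17, adjusted p = 3.2e-05) in L-GMP against GMP, and in L-GMP-derived cells against GMP by 2.5-fold (adjusted p = 0.000327). Mxd4, a further such partner, read 1568, 1589 and 1632 in GMP, 3003, 3114 and 3199 in L-GMP, and 1352, 901 and 1104 in L-GMP-derived cells, and it was higher in L-GMP than in GMP (1.94-fold, adjusted p = 0.000373). A dimmer probe set of Mxd4 was not called there (log2 difference 0.10, adjusted p = 0.645), while its other probe sets also rose. In L-GMP-derived cells the brightest was lower than in GMP (1.45-fold, adjusted p = 0.0123) and in L-GMP (2.81-fold, adjusted p = 2.13e-05).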

How the data were processed

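The authors deposited processed intensities of each array, linear in scale. MAS5 (version 5) is named per the submitters' processing notes, and no source used here gives the summary step, background correction or scaling. Of 204210 deposited values 1917 (0.939%) are negative. The arrays' means, trimmed by 2% at both ends, differed from their average by at most 4.02%, so the authors' scaling was kept. Signals were floored at 62.4 (25th percentile) before log2 was taken, which compresses differences of dim genes, and probe sets above 111 (40th percentile) on at least 3 of 9 arrays were tested, 14578 in all. Folds are between mean log2 signals, and values given with ± beside a log2 difference are standard errors.

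Names came from the platform annotation, using only probe sets with 1 symbol; 20364 of 20380 such probe sets matched RefSeq genes of GRCm38.p6. Genes were represented by the probe set with the highest mean log2 signal, giving 8965 genes; 11 of the 47 members stand for probe sets that can also bind related transcripts (names ending in _x_at or _s_at), namely Ebna1bp2, Fbl, Gar1, Ncl, Nhp2, Noc4l, Nop56, Polr1c, Polr1e, Tsr1 and Wdr43. Signals of different probe sets were not compared with each other.

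In R 4.3.3, limma 3.58.1 (lmFit, contrasts.fit, trended eBayes) was fitted to all 9 arrays with 6 residual degrees of freedom, two-sided, with Benjamini and Hochberg adjustment over all tested probe sets. A GMP array without a number was called replicate 1. The replicate numbers did not pair the arrays: correlations of same-numbered L-GMP and L-GMP-derived deviations were -0.309, -0.133 and -0.27, and 0 of 6 arrays correlated best with their own number. Named were the members past the threshold without overlap of the groups, up to 10 in each direction, a fixed set of core members, up to 4 genes of each further list, and the Myc and Max network; the other members are also given. The members and lists were chosen with earlier results of these data known. Floor, filter, array scaling, trend, arrays in the fit, array weights, choice of probe set and a replicate block were varied, and each array was left out in turn.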

Additional observations from a re-analysis of the deposited data

How the results depend on the processing

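Up to 22 alternatives gave a value for each gene. Of these alternatives, 1 gave none for Gar1, Polr1e, Ftsj3, Noc3l and Rrp12, and 2 gave none for Tsr1. In total 8 of the 24 falls in L-GMP against GMP passed the threshold under every alternative that gave a value (Gar1, Gnl3, Heatr1, Nolc1, Nop56, Polr1a, Rrp1b and Wdr43), as did 5 of the 13 rises in L-GMP-derived cells against GMP (Bop1, Emg1, Noc2l, Nop2 and Polr1d) and 27 of the 33 against L-GMP. Of the genes not called, 5, 13 and 6 passed under at least 1 alternative. The median log2 difference of the 47 genes lay between -0.39 and -0.30 for L-GMP against GMP, between 0.08 and 0.20 for L-GMP-derived cells against GMP, and between 0.57 and 0.66 against L-GMP.

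With single arrays left out, between 18 and 29 genes fell in L-GMP against GMP, between 8 and 15 rose and 0 to 1 fell in L-GMP-derived cells against GMP, and between 30 and 35 rose against L-GMP. Of the 96 further genes, 20 to 37 fell and 3 to 5 rose in L-GMP against GMP. In L-GMP-derived cells 9 to 34 rose and 1 to 3 fell against GMP, and 33 to 58 rose and 2 to 4 fell against L-GMP. Shares of all tested genes are given here only for the main fit and for array weights. Counts under the other alternatives are thus not set against all genes.

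In L-GMP-derived cells against GMP, 1 member fell, in place of 0, with the filter at the 60th percentile, trimmed mean scaling, quantile normalization, array weights, or without _x_at and _s_at probe sets. With array weights 22 members rose, in place of 13. Of the further genes, 38 rose and 9 fell with array weights, 5 fell with trimmed mean scaling and 6 with quantile normalization, in place of 19 and 3. Against L-GMP, 2 further genes fell with only the 6 arrays compared or with the mean over probe sets, in place of 4. Ncl reversed without _x_at and _s_at probe sets, where 1415773_at stands for it: -0.37 (adjusted p = 0.0407) in place of 0.18 (adjusted p = 0.107). The causes of the other changes were not tested.

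With the replicate number as a block, which the arrays did not bear out as a pairing, 11 members fell in L-GMP against GMP, and 5 rose in L-GMP-derived cells against GMP. Of the further genes, 13 fell and 1 rose in L-GMP against GMP, 3 rose and 1 fell in L-GMP-derived cells against GMP, and 2 fell against L-GMP. No detection calls were used, so the filter alone sets which dim genes, such as Dimt1, were measured.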

Other observations

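Of the 10 tested genes of the Myc and Max network, 4 rose and 1 fell in L-GMP against GMP, where 13.1% of all tested genes rose and 12.8% fell. In L-GMP-derived cells against L-GMP 1 rose and 5 fell, where 16.6% of all tested genes rose and 14.1% fell. In L-GMP-derived cells against GMP 2 rose and 2 fell, where 13.4% of all tested genes rose and 10.7% fell. Mga, another Max partner, averaged 154 ± 27.9 in GMP, 228 ± 38.0 in L-GMP and 136 ± 18.8 in L-GMP-derived cells (SD, n = 3) and rose 1.49-fold, adjusted p = 0.0388, in L-GMP against GMP. A dimmer probe set of Mga was not called there (log2 difference 0.21, adjusted p = 0.299). Mnt, which also opposes Myc, averaged 1279 ± 89.1 in GMP, 1437 ± 144 in L-GMP and 992 ± 99.4 in L-GMP-derived cells and was lower in L-GMP-derived cells than in GMP (1.29-fold, adjusted p = 0.0414) and than in L-GMP (1.45-fold, adjusted p = 0.00579). Max itself averaged 419 ± 94.6 in GMP, 458 ± 94.1 in L-GMP and 399 ± 59.9 in L-GMP-derived cells and was not called in any comparison. Nor were Mlx, Mxd3 and Mycl by their brightest probe sets (L-GMP against GMP 0.26, -0.14 and -0.49 in log2). A dimmer probe set of Mycl was lower in L-GMP-derived cells than in L-GMP (log2 difference -0.50, adjusted p = 0.0315). Mxd1 did not pass the filter.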
